A study of Arabidopsis thaliana with 7 samples.

Results

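Cytochromes P450 were followed on 7 Affymetrix ATH1 arrays of Arabidopsis thaliana seedlings. The members were the genes with a family, subfamily and gene number in their symbol (such as CYP71B22) that had a probe set assigned to them alone, the brightest such probe set standing for its gene. The rule found 23 of the 13350 genes that had such a probe set, and each of the 23 had 1. RefSeq holds 236 genes with a symbol of this form, so the members are a small part of the family. The annotation used assigned no gene to 8730 of the 22746 probe sets. Genes described here as without a probe set may therefore have one on the array. The members are also unevenly spread over the family, since 19 belong to the CYP71B subfamily. The other 4 are CYP78A9, CYP79A2, CYP84A4 and CYP51G2. All but CYP51G2 belong to the CYP71 clan, which left 22 genes in that clan and 1 in the CYP51 clan.

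The arrays comprised 2 of sta1 seedlings and 5 of wild-type seedlings, of which 1 was C24-LUC and 4 were Col-LUC. The series title describes STA1 as a nuclear protein needed for pre-mRNA splicing and mRNA turnover, and Col and C24 are natural strains of Arabidopsis. The titles describe all 7 samples as untreated, and no label gives the strain background of sta1. Plants were raised for 2 weeks on agar with 3% sucrose at 22 °C under 16 h light and 8 h dark. The growth text of both sta1 samples names ice1 in place of sta1, and the sample titles were followed. Whether arrays of 1 group stem from separate cultures is not stated in the labels. The p-values below therefore measure only how these samples vary, and that variation may be technical.

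P450 enzymes are haem proteins that split molecular oxygen and insert 1 oxygen atom into a substrate. Most plant P450s are anchored in the endoplasmic reticulum and receive electrons from NADPH through a P450 reductase. In Arabidopsis they act in lignin, flavonoid, glucosinolate, camalexin, cutin, sterol and hormone metabolism. The CYP71 clan holds most of the enzymes of specialised metabolism, and its CYP71B subfamily lies largely in tandem rows of neighbouring genes. CYP71B15, also called PAD3, makes the defence compound camalexin, but for most CYP71B enzymes no role is given here. The CYP51 clan is named for the sterol 14-demethylase.

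Signals are MAS5 values scaled by the authors to a target of 500. Array medians were 207.8 to 215.7, and signals of 100 or more were found for 63.9% to 65.3% of the probe sets on an array. Shoot and root markers were detected on every array. The summed signal of 4 shoot marker genes was 31187 and 34536 in sta1, against 47759 to 58267 in wild type. Of these 4, PSAN, LHCB4.1 and PSBW fell in sta1 (limma adjusted p between 0.00642 and 0.0421) and RCA had a log2 difference of -0.21. The summed signal of 3 root marker genes was 9906 and 11490 in sta1, against 10294 to 14437 in wild type. Most of it came from PYK10, at 9532.9 and 11040.5 in sta1. The log2 differences of PYK10, EXPA7 and EXPA18 were -0.19, 0.19 and -0.31, and none had a limma adjusted p under 0.05. The part of these organ markers in the P450 values was not tested. No gene of the seed and floral marker lists had a probe set of its own in the annotation used. In whole seedlings, fewer cells of a type and less RNA per cell cannot be told apart.

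Of the 23 members, 13 reached a signal of 100 on at least 2 arrays and were tested, against 68.9% of all 22746 probe sets. They were 12 of the 19 CYP71B genes and CYP78A9. The other 10 stayed under 100 on every array, and 7 of them stayed under 50, the value to which lower signals were raised before the tests. Among the 7 was CYP79A2, which makes phenylacetaldoxime from phenylalanine for benzylglucosinolate and had a highest signal of 4.70 over the 7 arrays. CYP71B31, an oxidase of the floral scent compound linalool, had a highest signal of 12.7. CYP51G2, which RefSeq lists as a transcribed pseudogene, had 48.8 and 49.6 in sta1, against 43.9 in C24-LUC and 34.9 to 48.5 in Col-LUC. CYP71B16, CYP71B21, CYP71B25 and CYP71B30P were the others that never reached 50. Their differences were not tested.

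Just below the limit lay CYP84A4, an enzyme of arabidopyrone synthesis. It had signals of 24.4 and 52.6 in sta1, against 89.8 in C24-LUC and 62.7, 80.2, 59.0 and 81.3 in Col-LUC. Both sta1 values were under all wild-type values, but no array reached 100. CYP71B27, the other member listed as a transcribed pseudogene, and CYP71B38 had highest signals of 60.7 and 60.5. Just above the limit lay CYP71B37, with 67.1 and 88.1 in sta1, against 98.1 in C24-LUC and 111.3, 106.4, 95.2 and 83.6 in Col-LUC. CYP71B37 and CYP71B22 passed the limit through wild-type arrays alone, so counts over the 13 tested genes are given as a description.

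**Figure D1:**
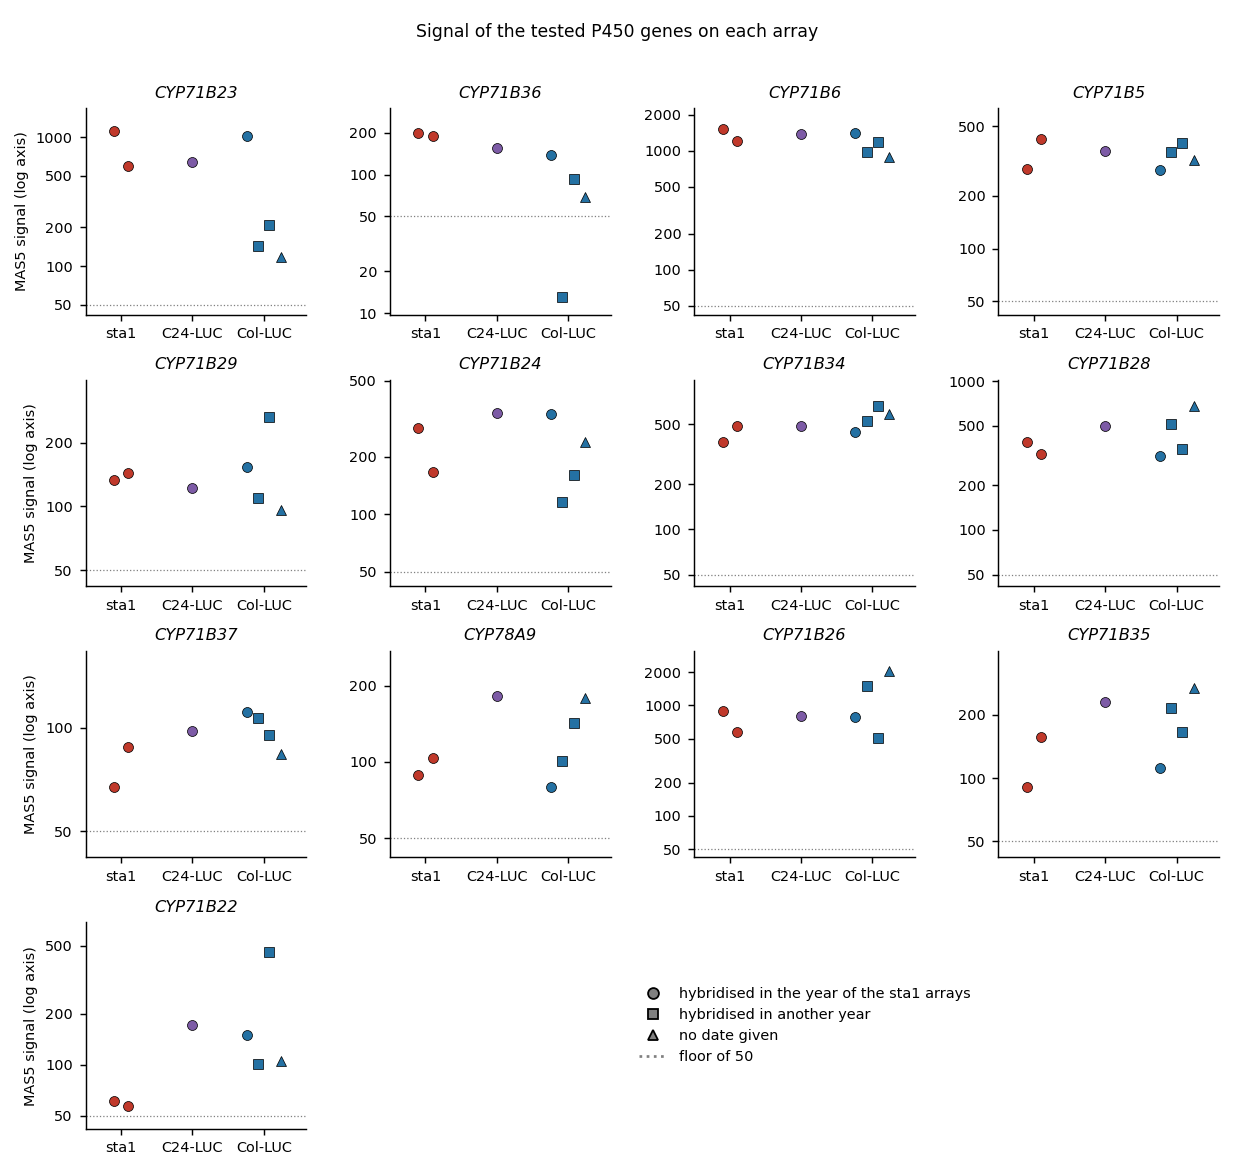
MAS5 signal of the 13 tested P450 genes on each array (log axis, each gene on its own scale), with 2 sta1, 1 C24-LUC and 4 Col-LUC arrays, the last drawn from left to right as replicates 1 to 4. Symbols give the calendar year of hybridisation and the dotted line the floor of 50; CYP71B22 lies lowest in sta1, at 61.3 and 57.4, and CYP71B23 is above 600 on all 4 arrays of the sta1 year.

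The first comparison asked which P450 transcripts differed in sta1 seedlings. CYP71B22 had the largest negative difference and CYP71B23 the largest positive one, each close to 3-fold, while CYP71B36 was about 2-fold higher. None of the 13 passed the test. With limma and Benjamini-Hochberg adjustment over all 15673 tested probe sets, 0 of the 13 were called higher or lower, where 1.31% of all tested probe sets were called, 0.542% higher and 0.766% lower. At an unadjusted limma p under 0.05 there were 2 of 13, CYP71B22 and CYP71B36, against 23.5% of all tested probe sets. A difference of at least 2-fold was found in 3 of 13, against 6.23%. Of the 13 differences 9 were negative, against 49.2% over all tested probe sets. Their median log2 difference was -0.32, against 0.01 over all tested probe sets. This lean to negative values depended on the processing and on which arrays were compared. With a floor of 100 the median was -0.05. Without a signal limit it was -0.01 over all 23 members, 7 of which stayed under 50 on every array. Within the calendar year of the sta1 arrays the median was -0.14 over 12 members, with 4 positive and 8 negative. Within their chip lot it was -0.06, with 5 positive and 8 negative. Within the hybridisation session that sta1 1 shares with Col-LUC 1 it was 0.02, with 7 positive and 6 negative. With same-numbered arrays as blocks it was 0.09, again with 7 positive and 6 negative. Without sta1 1 it was -0.16, and without Col-LUC 4 it was -0.20. All 13 tested genes belong to the CYP71 clan, so the clans cannot be compared for differences. The 12 CYP71B genes had a median of -0.17, with 4 positive and 8 negative, and CYP78A9 had -0.44.

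CYP71B22 had signals of 61.3 and 57.4 in sta1, against 172.1 in C24-LUC and 149.6, 100.7, 458.0 and 104.7 in Col-LUC. Both sta1 arrays lay below all 5 wild-type arrays, which 15.7% of all tested probe sets did, and CYP71B22 was the only one of the 13 to do so. The log2 mean was 5.89 ± 0.07 in sta1 (SD, n = 2) and 7.37 ± 0.88 in wild type (SD, n = 5). The difference of -1.48 ± 0.54 (SE), a 2.79-fold lower level, had a limma p of 0.0246 and an adjusted p of 0.158. Its 95% interval ran from -2.72 to -0.24. CYP71B22 was tested because its wild-type signals were high, so the p-value is conditional on that, and without a signal limit the limma adjusted p was 0.304. Both sta1 signals were close to the floor of 50, and with a floor of 100 the difference was -0.73.

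CYP71B36 had 200.4 and 188.3 in sta1, against 156.5 in C24-LUC and 138.9, 13.0, 93.0 and 69.4 in Col-LUC. It was the 1 member with both sta1 arrays above all wild-type arrays, as were 16.7% of all tested probe sets. The log2 mean was 7.60 ± 0.06 in sta1 (SD, n = 2) and 6.54 ± 0.69 in wild type (SD, n = 5). The log2 difference was 1.06 ± 0.43 (SE), with a limma p of 0.0395 and an adjusted p of 0.191, and a 95% interval from 0.06 to 2.06. Col-LUC 2 lay under the floor, and the difference was 1.32 with a floor of 20 and 0.73 with a floor of 100 (variants of the same fit).

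CYP71B23 had the widest wild-type spread on the log2 scale with the floor applied (SD 1.37, n = 5). Its signals were 1112.9 and 600.3 in sta1, against 638.0 in C24-LUC and 1023.6, 143.2, 208.8 and 118.1 in Col-LUC. The groups overlapped, because C24-LUC and Col-LUC 1 were as high as the sta1 arrays while the other 3 Col-LUC arrays were several times lower. The log2 difference was 1.46 ± 0.83 (SE; limma adjusted p = 0.321), and its 95% interval from -0.43 to 3.35 includes 0 and reaches 10.2-fold.

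Among the 5 genes with the next largest negative differences, CYP71B35 had 90.5 and 157.2 in sta1, against 229.4 in C24-LUC and 112.4, 216.6, 165.7 and 268.2 in Col-LUC. Its log2 difference was -0.67 ± 0.36 (SE; limma adjusted p = 0.300). CYP71B26 differed by -0.48 ± 0.50 and had 892.9 and 572.4 in sta1, against 805.4 in C24-LUC and 782.5, 1486.4, 508.8 and 2071.4 in Col-LUC, so that both sta1 values fell inside the wild-type range. CYP78A9, which promotes growth of fruit and seeds, had 88.7 and 103.5 in sta1, against 182.6 in C24-LUC and 79.7, 101.1, 142.3 and 179.1 in Col-LUC. Its difference was -0.44 ± 0.35. CYP71B37, with the signals above, differed by -0.36 ± 0.23, and CYP71B28 by -0.35 ± 0.30. In all 5 the groups overlapped.

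The remaining 5 genes differed by less. CYP71B34 had 379.3 and 486.3 in sta1, against 488.3 in C24-LUC and 446.6, 523.5, 662.0 and 586.5 in Col-LUC, a log2 difference of -0.32 ± 0.19 (SE; limma adjusted p = 0.347). CYP71B6, which turns indole-3-acetonitrile into indole-3-carbaldehyde, had 1516.8 and 1210.5 in sta1, against 1376.4 in C24-LUC and 1403.8, 968.9, 1179.1 and 888.4 in Col-LUC. Its difference was 0.24 ± 0.22, with a 95% interval from -0.25 to 0.74. CYP71B5 had 285.2 and 422.0 in sta1, against 362.6 in C24-LUC and 281.7, 354.3, 403.9 and 321.1 in Col-LUC. For CYP71B5 the 2 sta1 arrays lay near the lowest and above the highest wild-type array. The difference of CYP71B5 was 0.02 ± 0.20, and the interval from -0.45 to 0.49 reaches 1.40-fold at its far end. CYP71B24 and CYP71B29 had differences of -0.02 ± 0.44 and -0.01 ± 0.37, with intervals that reached 2.05-fold and 1.82-fold.

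**Figure D2:**
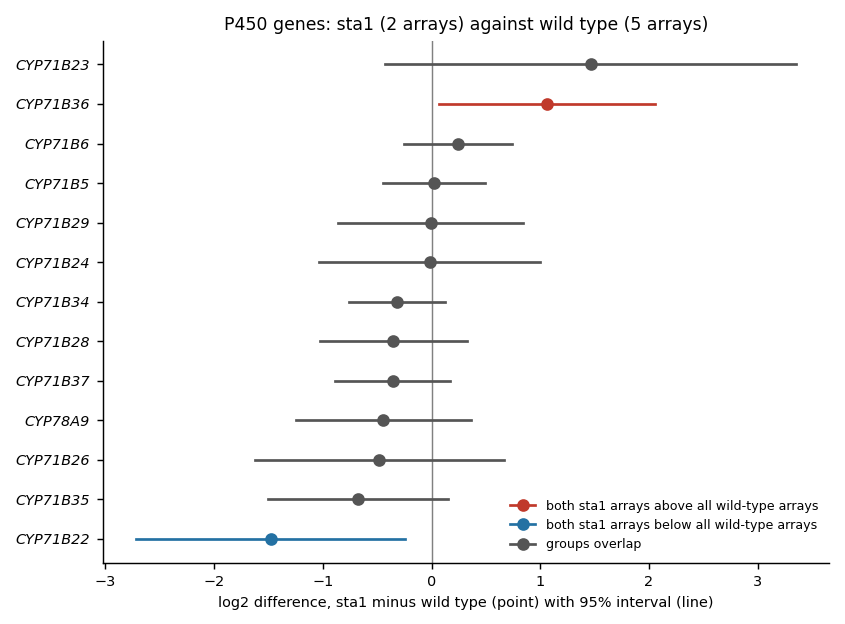
Log2 difference between sta1 (2 arrays) and wild type (5 arrays) for the 13 tested P450 genes, as points with 95% intervals from limma. The intervals of CYP71B22, from -2.72 to -0.24, and CYP71B36, from 0.06 to 2.06, do not reach 0; neither gene passed after adjustment over all probe sets.

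Genes of the CYP71B subfamily stand in rows on the chromosomes. The longest row runs on chromosome 3 from CYP71B16 (AT3G26150) to CYP71B37 (AT3G26330). In the RefSeq annotation this stretch has 25 genes, of which 18 are P450s, 11 are members and 8 were tested. CYP71B22 and CYP71B23 are direct neighbours there and had the largest negative and the largest positive difference of all members, -1.48 and 1.46. Neither passed, the difference between them was not tested, and within the calendar year of the sta1 arrays they were at -1.44 and 0.02. CYP71B34, CYP71B35, CYP71B36 and CYP71B37 follow one another without a gene between, with differences of -0.32, -0.67, 1.06 and -0.36. CYP71B36 alone was positive among these 4. CYP71B21, next to CYP71B22 on its other side, had a highest signal of 10.7 and was not tested. Smaller groups of members lie on chromosome 1, where CYP71B28 and CYP71B29 are neighbours, and on chromosome 3, where CYP71B5 stands beside CYP71B30P. Close copies can hybridise to probes of one another, and the probe sequences were not analysed here, so the share of each signal that comes from a neighbour is not known.

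**Figure D3:**
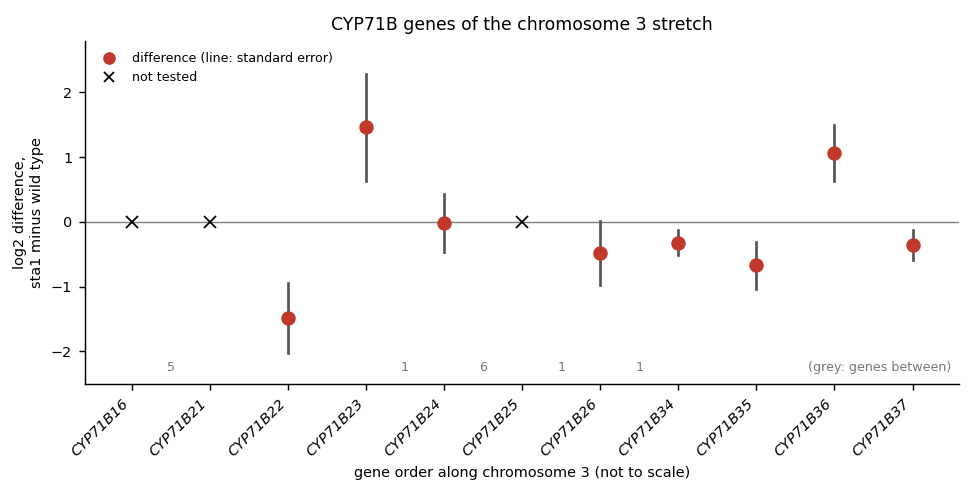
Log2 difference between sta1 and wild type (points, with standard errors as lines) for the 11 members of the chromosome 3 row in gene order, not to scale. Crosses mark 3 genes that were not tested and grey numbers count genes between members; CYP71B22 and CYP71B23, side by side, differ by -1.48 and 1.46.

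The arrays differ in the calendar year of hybridisation, in chip lot and in session. Both sta1 arrays, C24-LUC and Col-LUC 1 were hybridised in 1 year, Col-LUC 2 and Col-LUC 3 in another, and Col-LUC 4 carries no date. Both sta1 arrays and Col-LUC 1 also share a chip lot, and sta1 1 shares a hybridisation session with Col-LUC 1. In CYP71B23, CYP71B36, CYP71B24 and CYP71B6, 4 of the 13, all 4 arrays of the sta1 year lay above Col-LUC 2 and Col-LUC 3, as in 14.6% of all tested probe sets. In CYP71B34 all 4 lay below, as in 13.4%. These counts are given as a description, and nothing particular to the P450 genes is read from them. CYP71B24, for example, had 281.2 and 165.4 in sta1, against 337.0 in C24-LUC and 333.9, 116.1, 159.4 and 239.2 in Col-LUC. The part of the year, lot or session in the differences was not tested.

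Against the wild-type arrays of the same year alone (C24-LUC and Col-LUC 1), the difference of CYP71B23 was 0.02, and that of CYP71B36 was 0.40. With chip lot as a block, which sets both sta1 arrays against Col-LUC 1, these were -0.32 and 0.48. For the single pair hybridised in 1 session they were 0.12 and 0.53, with no test. CYP71B22 was at -1.44 within the year, -1.33 within the lot and -1.29 within the session. These settings share Col-LUC 1, so their values are not independent of one another. With same-numbered arrays as blocks CYP71B22 was at -1.05. CYP71B24 was at -0.64 within the year and -0.63 within the lot. Within the year the median size of the differences, regardless of sign, was 0.15 over 12 members, against 0.25 over all probe sets tested there. Within the lot it was 0.27, against 0.21, and within the session 0.24, against 0.21. Over all 7 arrays it was 0.36 over 13 members, against 0.28. With limma the year and lot settings called 0 probe sets of the whole array, so a member count of 0 was fixed there.

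**Figure D4:**
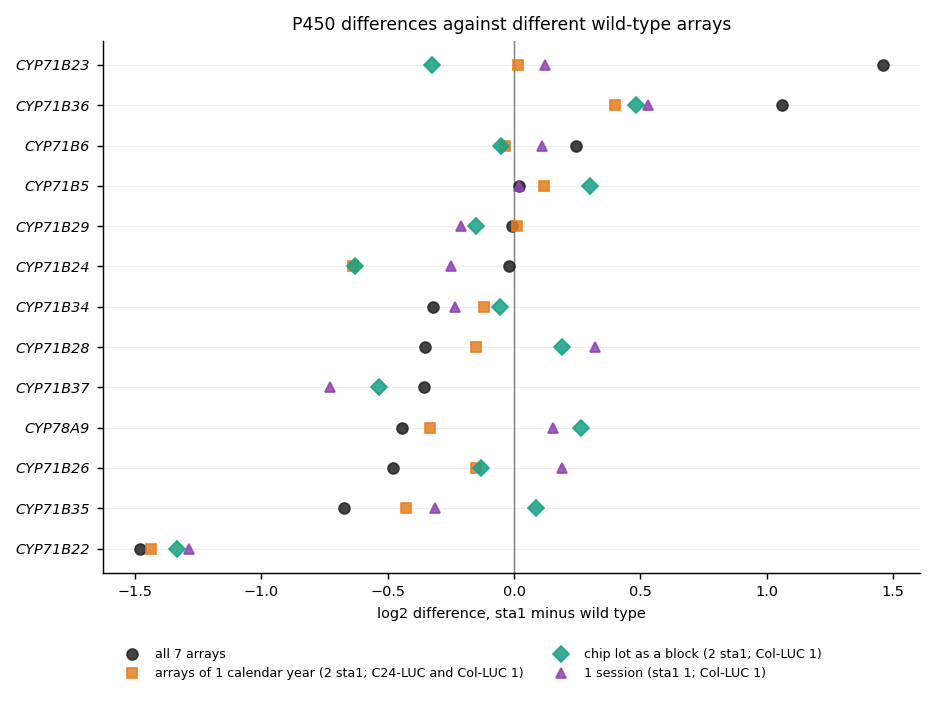
Log2 difference between sta1 and wild type of the 13 tested P450 genes over all 7 arrays and within 1 calendar year, 1 chip lot and 1 hybridisation session; CYP71B37 did not reach the signal limit within the year and has no point there. CYP71B22 stays between -1.48 and -1.29, whereas CYP71B23 is at 1.46 over all arrays and between -0.32 and 0.12 in the other settings.

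Within the wild type, the 13 tested P450 genes, 12 of them CYP71B, had a higher median spread between arrays than all tested probe sets. The median SD over the 4 Col-LUC arrays was 0.54 on the log2 scale for the 13 genes, against 0.24 over all tested probe sets. Over the 12576 probe sets whose mean Col-LUC signal lay in the range of the members, 78.6 to 1212, it was 0.25. With low signals raised to the floor, the highest Col-LUC array was at least 2-fold above the lowest in 9 of 13. This compares with 17.8% of all tested probe sets. It was at least 4-fold above the lowest in 3 of 13, against 2.78%. Those 3 were CYP71B23 at 8.67-fold, CYP71B22 at 4.55-fold and CYP71B26 at 4.07-fold. The array that was highest was a different one in each, Col-LUC 1 for CYP71B23, Col-LUC 3 for CYP71B22 and Col-LUC 4 for CYP71B26. CYP71B36 entered these counts at 2.78-fold only because its Col-LUC 2 signal was raised to the floor. Before the floor its Col-LUC signals ran from 13.0 to 138.9, a wider fold range than that of CYP71B23. CYP71B37, CYP71B5, CYP71B34 and CYP71B6 stayed within 1.33-fold, 1.43-fold, 1.48-fold and 1.58-fold. Of the 4 Col-LUC arrays, Col-LUC 2 and Col-LUC 3 share a hybridisation year. Col-LUC 1, Col-LUC 2 and Col-LUC 3 came from different chip lots, and no lot is given for Col-LUC 4.

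The second comparison set the C24-LUC array against the 4 Col-LUC arrays, to see how far P450 transcripts differed between the wild-type strains. With limma 0 of 13 members were called, where 1.37% of all tested probe sets were called, 0.204% higher and 1.16% lower, and 0 of 13 had an unadjusted p under 0.05, against 12.5%. The C24-LUC array lay above all Col-LUC arrays in 3 of 13, CYP71B36, CYP71B24 and CYP78A9, against 24.9% of all tested probe sets, and below them in 0 of 13, against 21.0%. The largest positive log2 differences were those of CYP71B23 at 1.38 ± 1.05 (SE), CYP71B36 at 0.94 ± 0.51, CYP71B24 at 0.78 ± 0.55, CYP78A9 at 0.61 ± 0.44 and CYP71B35 at 0.34 ± 0.49, with limma adjusted p between 0.521 and 0.849. The 4 negative ones were CYP71B26 at -0.39 ± 0.69, CYP71B29 at -0.23 ± 0.52, CYP71B34 at -0.17 ± 0.26 and CYP71B37 at -0.01 ± 0.32. CYP71B22 differed by 0.07 ± 0.76. The median was 0.18 over the 13 genes, against 0.03 over all tested probe sets. Of these genes only CYP71B23 differed by 2-fold or more, against 6.07% of all tested probe sets. Since C24-LUC is 1 array in a lot of its own, strain, array and lot cannot be told apart. It was hybridised in the same year as Col-LUC 1 and in another year than Col-LUC 2 and Col-LUC 3. In CYP71B23, CYP71B36 and CYP71B24, Col-LUC 1 had 1023.6, 138.9 and 333.9, against 638.0, 156.5 and 337.0 in C24-LUC. The part of the year in these differences was not tested. This comparison shares its Col-LUC arrays with the first one.

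Partners of P450s and genes of pathways, stress and iron deficiency were described from 14 lists, chosen with earlier results of these data known. In the annotation used, 11 of their 163 loci had a probe set of their own, and all 11 were tested. Of these, 2 rose and 0 fell in sta1, where 1.31% of all tested probe sets were called. Because of that choice no excess is read from this count. The 2 that rose were AT2G21640, a marker of mitochondrial and oxidative stress, and BHLH101, a transcription factor induced when iron is short. AT2G21640 had 1277.3 and 1805.6 in sta1, against 106.8 in C24-LUC and 311.7, 176.5, 198.5 and 137.1 in Col-LUC (limma adjusted p = 0.0159). Its log2 difference was 3.12 over all arrays, 3.06 within the calendar year, 2.28 within the lot and 2.03 within the session. BHLH101 had a log2 difference of 3.02 ± 0.52 (SE; limma adjusted p = 0.0379), and 2.15, 2.21 and 2.13 in the same 3 settings. Both calls were lost within the year, within the lot and with same-numbered arrays as blocks, where limma called 0 probe sets in all, as were those of the shoot markers. The P450s known for these settings, CYP81D8 and CYP82C4, were not among the members.

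In the carotenoid list LYC, the lycopene beta-cyclase, was the 1 gene tested. Its signals were 856.6 and 951.1 in sta1, against 1840.4 in C24-LUC and 1269.8, 1766.2, 1386.1 and 1961.1 in Col-LUC. Both sta1 arrays lay below all wild-type arrays, as in 15.7% of all tested probe sets. The difference of -0.85 ± 0.20 (SE) had a limma adjusted p of 0.0737. It was -0.76 within the calendar year, -0.49 within the lot and -0.57 within the session. The P450 partner list gave AT3G02280, a flavin reductase also known as ATR3, at 160.8 and 191.4 in sta1, against 234.3 in C24-LUC and 223.4, 203.9, 213.6 and 206.1 in Col-LUC. Here too both sta1 signals were below all wild-type signals, as in the same 15.7%. The difference was -0.30 ± 0.16 (limma adjusted p = 0.285). It was -0.38 within the calendar year, -0.35 within the lot and -0.47 within the session.

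In the glucosinolate and camalexin list, UGT74B1, which adds glucose to thiohydroximates, differed by -0.33 ± 0.14, and BCAT4, which starts methionine chain elongation, by -0.24 ± 0.18 (SE). Neither passed (limma adjusted p = 0.212 and 0.438). In the phenylpropanoid and flavonoid list HCT, an acyltransferase of lignin synthesis, differed by 0.05 ± 0.14 and DFR, a late enzyme of anthocyanin synthesis, by 3.03 ± 0.82 (limma adjusted p = 0.865 and 0.0933). The difference of DFR was 1.77 within the calendar year and 0.72 within the session. GSTU25, a glutathione transferase of the stress list, differed by 2.55 ± 0.65 (limma adjusted p = 0.0848), by 2.12 within the calendar year and by 0.44 within the session. In the iron list AT3G12900 and AT3G13610, both enzymes of coumarin synthesis, had differences of 1.31 ± 0.54 and 0.98 ± 0.47 (limma adjusted p = 0.193 and 0.255). Within the calendar year these were 0.50 and 0.30, and within the session 0.03 and -0.11. The other 8 lists had no gene with a probe set of its own in the annotation used. They covered sterols and brassinosteroids, gibberellin, abscisic acid, jasmonate, cytokinin and strigolactone, cutin and wax, root triterpenes and P450s under other symbols.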

How the data were processed

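Per the submitters' processing notes and the labels, the authors made the deposited intensity values with MAS5, using global scaling to 500. No MAS5 version is stated there. Values were taken as they stand after 64 control probe sets were left out. Signals under 50 were set to 50 and converted to log2, and the 15673 of 22746 probe sets that reached 100 on 2 or more arrays were kept. Fits used lmFit and eBayes (intensity trend) of limma 3.58.1 under R 4.3.3, with Benjamini-Hochberg adjustment over all tested probe sets and a threshold of 0.05. sta1 (2 arrays) was set against all 5 wild-type arrays, as in the series design. C24-LUC was set against Col-LUC with 3 groups in the model; its single array is assumed to vary like those of the other groups. The fits were also run on simulated arrays that varied independently, without effects of year, lot or session. That run therefore says nothing about such effects. Precision is limited by how many arrays there are, since arrays have no read depth.

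Genes were named from the platform annotation through gene identifiers matched to RefSeq (TAIR10.1), which matched 23 of 23 members with the same symbol. The files name no genome build, so gene order but no coordinates are given. A further 2 probe sets that a P450 shares with another gene were not used. Named were all called members, the 10 largest differences in each direction for sta1, the 5 largest in each direction for C24-LUC, and up to 4 genes per list. Chip lot and hybridisation date came from the deposited experiment files. The members and lists were chosen with earlier results of these data known. Alternatives covered the floor, filter, normalization, trend, array weights, blocks and each array left out.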

Additional observations from a re-analysis of the deposited data

Results flagged for a closer look

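Among the 4 Col-LUC arrays, 1 array stood apart from the other 3 in 2 of the 13 tested P450 genes. The measure was the gap to the nearest array as a part of the range, on signals before log2 conversion. Its nominal rate is about 1 in 20 groups, or 0.65 of 13. The share of all tested probe sets flagged this way is not given here, so no excess is read from the count. For CYP71B22 the array was Col-LUC 3 with a signal of 458.0, the remaining Col-LUC signals being 100.7 to 149.6. For CYP71B23 it was Col-LUC 1 with 1023.6, the remaining ones being 118.1 to 208.8. Neither stood apart by the same measure on the log2 scale, where the count was 0. Without Col-LUC 3 the difference of CYP71B22 between sta1 and wild type was -1.11, and without Col-LUC 1 that of CYP71B23 was 1.91, and limma called neither.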

How the results depend on the processing

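No member was called in the main setting, and of the alternatives with a test array weights alone called any. Nothing can be read from a count of 0 under the replicate block, the chip lot block, the arrays of 1 calendar year, or without sta1 1 or sta1 2, where limma called 0 probe sets in all, and the session pair has no test. With array weights limma called 1 member higher, CYP71B36 at 1.20 (adjusted p = 0.0277), and 1 lower, CYP71B22 at -1.47 (adjusted p = 0.0404), while 22.1% of all probe sets were called; adjusted p over all their alternatives lay between 0.0277 and 0.606 and between 0.0404 and 0.544. A signal of 200 in place of 100 on 2 arrays was reached by 8 members in place of 13. The median difference in sta1 lay between -0.34 and 0.09, and between -0.32 and -0.16 with 1 array left out. CYP71B22, CYP71B34, CYP71B36 and CYP71B37 kept their sign in every alternative that gave them a value.

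Other signs turned. With median centring CYP71B24 was at 0.0102 and CYP71B29 at 0.0195. CYP71B24 was at 0.11 with array weights and at 0.14 with the 4 Col-LUC arrays only. With chip lot as a block CYP71B23 was at -0.32, CYP71B28 at 0.19, CYP71B35 at 0.0857, CYP71B6 at -0.0510 and CYP78A9 at 0.27. Within the calendar year CYP71B29 was at 0.0115 and CYP71B6 at -0.0368, with the same values for the year as a block, an alternative chosen after seeing the data. Within the session CYP71B26 was at 0.19, CYP71B28 at 0.32 and CYP78A9 at 0.15. With 1 array left out CYP71B24 ranged from -0.40 to 0.36, CYP71B29 from -0.14 to 0.22 and CYP71B5 from -0.26 to 0.30. For C24-LUC, CYP71B37 was at 0.0235 with array weights, and with 1 array left out CYP71B22 ranged from -0.16 to 0.56 and CYP71B29 from -0.42 to 0.0665. The cause was not tested.

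With the replicate block, which pairs same-numbered sta1 and Col-LUC arrays, the median difference was 0.09, CYP71B24 was at 0.13, CYP71B29 at 0.0950 and CYP78A9 at 0.0941, and no member was called. Deviations of same-numbered arrays correlated at 0.192 for number 1 and -0.00700 for number 2. The pair numbered 1 also shares a chip lot and a hybridisation session, whereas the pair numbered 2 shares neither, so the numbers were not taken to pair the samples.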
